A study of Homo sapiens with 26 samples.

Results

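Estrogen receptor (ER) and progesterone receptor (PR) sites were compared in T47D cells that had received both hormones at once. T47D is an established human breast cancer line, labelled ER+/PR+. The cells were deprived of steroids for 48 hours in charcoal-stripped serum medium and then given 10 nM estradiol (E2) together with 10 nM R5020, a synthetic progestin, for 45 min. Sites were mapped by chromatin immunoprecipitation and sequencing (ChIP-seq), with the antibody HC-20 for ER and the antibody KD68 for PR. The study has 26 samples in 26 groups of 1 library each, of which 10 have a list of called sites, with 87206 sites in all. The comparison takes every row of the ER list (19220 sites) and of the PR list (11908 sites), 31128 sites together, on the hg19 build. Any site with 1 bp or more in common with a site of the opposite receptor was classed as shared, and the remainder as ER only or PR only.

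The other 8 lists served to describe the classes. In T47D they were ER and PR with 10 nM E2, ER and PR with 10 nM R5020, and a reChIP with both hormones, in which chromatin pulled down for ER was pulled down again for PR, all for 45 min. In T47D cells labelled PR-deficient they were ER with E2, with R5020 and with both, at the same doses and time. The labels do not say how PR was removed from those cells. Vehicle libraries, and for the reChIP also an IgG control, had been subtracted from the lists by the authors. With 1 library in each group there is no replicate error. No test between libraries was possible and no p-value is given. Intervals are exact Clopper-Pearson 95% intervals over sites and cover counting error only, as if sites were independent. The receptor, its antibody and its library cannot be told apart. Which genes lie at the sites, and their sequences, were not analysed here, because no hg19 genome or gene models were at hand for the work.

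ER and PR are nuclear receptors, proteins that act at DNA once a steroid has bound them. ER recognises estrogen response elements, and PR recognises response elements that it has in common with the glucocorticoid and androgen receptors. The PR gene is itself a target of ER in breast cells, and the 2 receptors can be found in common protein complexes. A shared site in these data means that both antibodies recovered the same stretch of DNA from a population of cells. It does not show that both receptors sat on the same molecule, which is the question the reChIP addresses.

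Most sites of either receptor were listed for that receptor alone. Of the ER sites, 992 of 19220 lay at a PR site (5.16%, interval 4.85 to 5.48), which left 18228 ER-only sites. Of the PR sites, 961 of 11908 lay at an ER site (8.07%, 7.59 to 8.57), which left 10947 PR-only sites. These 2 shares are the background against which the shares of subsets are read. In sequence the overlap was 312800 bp, 6.56% of the 4.77 Mb covered by ER sites and 7.83% of the 3.99 Mb covered by PR sites. With an overlap of 50% or more of each site required, the ER share was 3.41% and the PR share 5.5%. Lists of the same receptor with a single hormone met the lists of both hormones about as seldom. Of all ER sites, 4.47% lay at ER sites with E2 alone and 4.98% at those with R5020 alone. Of all PR sites, 8.41% lay at PR sites with E2 alone and 6.71% at those with R5020 alone. Those lists were shorter and of other treatments. Whether single-receptor sites are specific to their receptor was thus not tested.

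Shared sites were mostly a single ER site on a single PR site. The 992 ER and 961 PR sites formed 1004 pairs. A single PR site was met by 980 of the ER sites and 2 PR sites by 12. In the other direction 921 PR sites met 1 ER site, 37 met 2 and 3 met 3. The sites of a pair were nearly concentric: the median distance between their centres was 55.5 bp, with quartiles of 23.5 and 107.5 bp, and 930 of the 1004 pairs (92.6%) had centres within 200 bp. The ER site lay wholly inside the PR site in 479 pairs (47.7%), the PR site wholly inside the ER site in 121 (12.1%), and the sites overlapped in part in 404 (40.2%). The PR site was the longer in 751 pairs and the ER site in 251, and the median ratio of ER to PR length was 0.742. The median overlap was 270 bp and covered the whole of the shorter site.

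**Figure D1:**
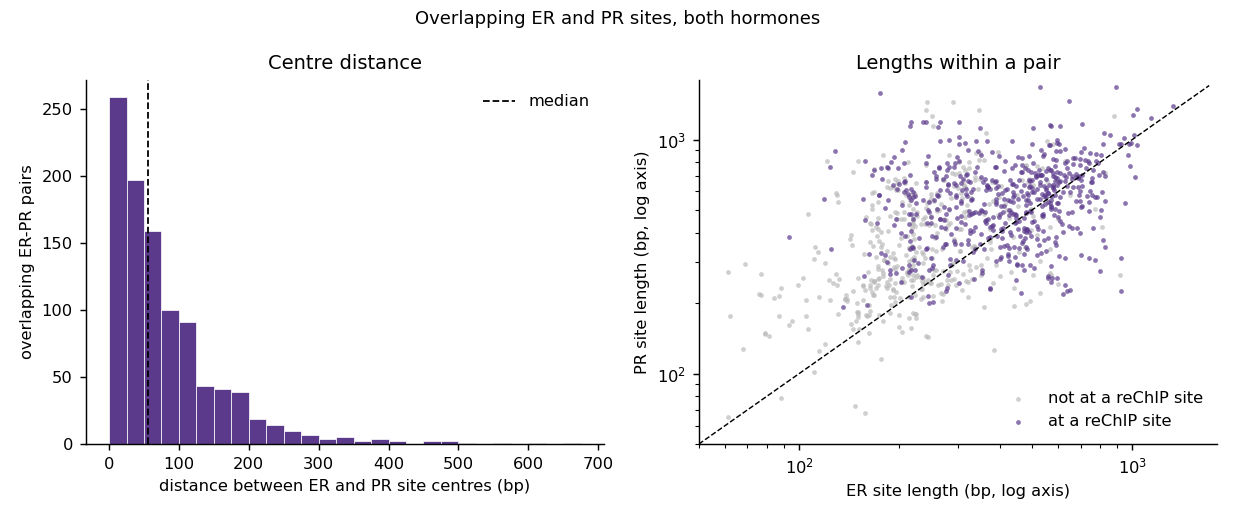
Left, number of overlapping ER-PR pairs by distance between site centres (bp, windows of 25 bp), with the median of 55.5 bp as a dashed line. Right, ER site length against PR site length (bp, log axes) for the 1004 pairs, coloured by overlap with a reChIP site; 751 pairs lie above the dashed line of equal length.

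Few pairs sat at the edge of the rule. An overlap of 50 bp or less was found in 20 of the 1004 pairs and of 10 bp or less in 3. The pairs just inside were chromosome 16, where the ER site at 85591578 to 85592175 met the PR site at 85592175 to 85592415 by 1 bp, and chromosome 10, where the overlap at 6339904 to 6339908 was 5 bp. The closest pair outside was on chromosome 12, with an ER site at 44182360 to 44182529 that was 1 bp from a PR site. Near misses were few: 25 ER-only sites lay within 50 bp of a PR site, 198 (1.09%) within 500 bp and 378 (2.07%) within 1 kb (1000 bp). For PR-only sites the counts were 27, 200 (1.83%) and 372 (3.4%). The median ER-only site was 129134 bp from the nearest PR site and the median PR-only site 33680 bp from the nearest ER site, beside a longer ER list.

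Shared sites were longer and higher in score than single-receptor sites. The difference in score rank was far larger in the PR list than in the ER list. The score is the authors' own value per site, and its unit is not stated. It is compared only within a list, as a percentile rank with ties at their mean rank. Shared PR sites had a median percentile of 87.8 and PR-only sites one of 50.7. Shared ER sites had a median of 58.3 and ER-only sites one of 40.5. Median lengths were 465 bp for shared PR sites against 286 bp for PR only, and 310.5 bp for shared ER sites against 207 bp for ER only. Of the shared PR sites, 585 of 961 (60.9%) lay above percentile 80 of their list, against 1976 of the 10947 PR-only sites (18.1%). In the ER list it was 259 of 992 (26.1%) against 3199 of 18228 (17.5%). Longer sites can meet the overlap rule more easily, so part of the difference in length is built into the classes.

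Most of the 100 highest-scoring PR sites lay at ER sites, and most of the 100 highest-scoring ER sites did not lie at PR sites. Among the 100 highest-scoring PR sites (116 with ties) 84 lay at an ER site (72.4%, 63.3 to 80.3). The share was 48.3% (44.2 to 52.4) of the highest 500 (594 with ties) and 36.1% (33.4 to 38.9) of the highest 1000 (1210 with ties). At the lowest PR score, which 4497 sites had, it was 3.22% (2.73 to 3.78). Among the 100 highest-scoring ER sites (127 with ties) 16 lay at a PR site (12.6%, 7.38 to 19.7). It was 9.47% (7.15 to 12.2) of the highest 500 (549 with ties) and 8.81% (7.21 to 10.6) of the highest 1000 (1113 with ties). The median length of the highest 100 was 769 bp in the PR list and 283 bp in the ER list. PR sites were also set against the longer list, of 19220 ER sites against 11908 PR sites. Both make an overlap easier for PR sites, and their part in the contrast was not tested.

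The top of the ER list was rich in sites next to long stretches of a chromosome without any site. Such stretches were taken as 3 Mb or more without a site in any of the 10 lists. Above percentile 99 of the ER list, 97 of 165 ER-only sites (58.8%, 50.9 to 66.4) lay within 2 Mb of one. None of the 23 shared ER sites above that percentile did, which allows a share of up to 13%. Of all ER-only sites 15.2% lay there, of all shared ER sites 5.34%, of PR-only sites 6.8% and of shared PR sites 5.52%. Without these sites and chromosome Y, a setting chosen for this measure after seeing the data, 24 of the 107 highest-scoring ER sites lay at a PR site (22.4%, 14.9 to 31.5), and 82 of the 113 highest-scoring PR sites lay at an ER site (72.6%, 63.4 to 80.5). Of the highest 500 ER sites (639 with ties) it was 14.9% (12.2 to 17.9). The PR share thus stayed above the ER share without them, while the ER share itself was higher.

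Length separated the lists further. Of ER sites of up to 150 bp, 2.16% (1.69 to 2.72) lay at a PR site, rising to 19.2% (17.1 to 21.5) at over 400 and up to 600 bp and 19.2% (16.1 to 22.7) at over 600 and up to 1000 bp. It was 4.96% (2.02 to 9.96, 7 of 141) above 1000 bp. Of PR sites, 9.57% (5.77 to 14.7) of up to 150 bp lay at an ER site, and 4.77% (3.4 to 6.49) at over 150 and up to 200 bp. It was lowest, 3.54% (3.06 to 4.07), at over 200 and up to 300 bp and then higher, 39.2% (35.5 to 43) at over 600 and up to 1000 bp and 53.2% (38.1 to 67.9, 25 of 47) above 1000 bp. Of the 134 ER-only sites above 1000 bp none was listed with ER and E2, which allows up to 2.24%, 1 was listed in PR-deficient cells with E2, and 23.9% (16.9 to 32) lay at a reChIP site. The reChIP share was close to the 22.9% (19.2 to 27.1) of ER-only sites of over 600 and up to 1000 bp. Of the 7 shared ER sites above 1000 bp, 1 was listed with ER and E2, 6 in PR-deficient cells with E2 and 7 at a reChIP site. Of these 134 sites, 8 lay next to a long empty stretch.

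**Figure D2:**
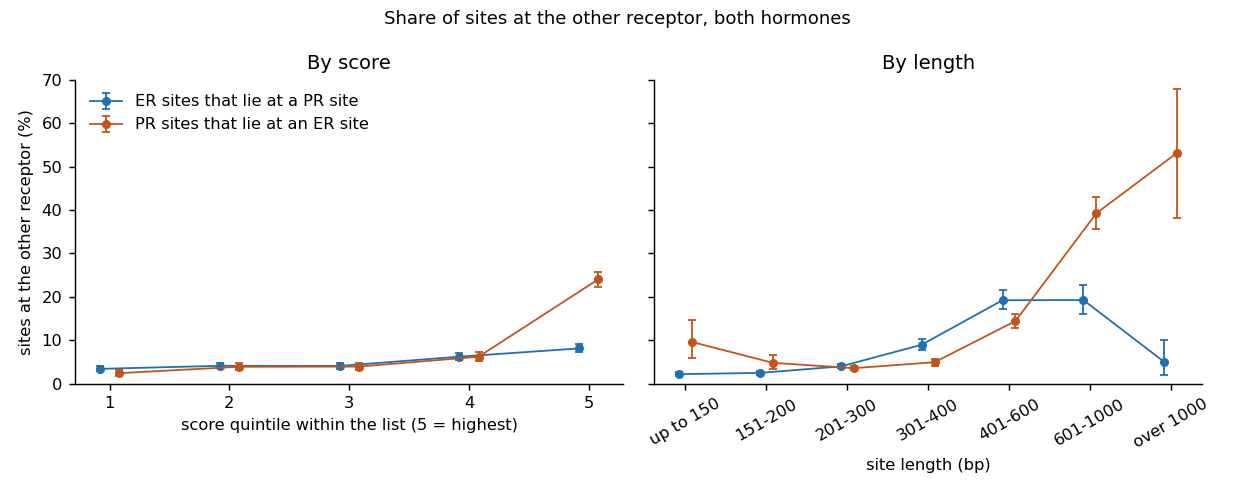
Percent of ER sites at a PR site and of PR sites at an ER site by score quintile within the list (left, 5 is the highest) and by site length in bp (right); points are shares and bars exact 95% intervals over sites. The PR share rises to 53.2% above 1000 bp, where the ER share is 4.96%.

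Within pairs, the score ranks of the 2 receptors were loosely related. Spearman's rho over the 1004 pairs was 0.337 for score percentiles and 0.451 for lengths, both across sites of the same pair of libraries and given as a description. Both sites lay above percentile 80 in 207 pairs, the PR site alone in 414, the ER site alone in 58 and neither in 325.

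The reChIP list, made with both hormones and not used to form the classes, held most of the shared sites and few of the others. Of the shared ER sites 558 of 992 lay at a reChIP site (56.2%, 53.1 to 59.4), beside 10.3% of all ER sites. Of the ER-only sites 1419 of 18228 did (7.78%, 7.4 to 8.18), a difference of 48.5 percentage points (Newcombe 95% interval 45.3 to 51.5). Of the shared PR sites 541 of 961 lay at a reChIP site (56.3%, 53.1 to 59.5), beside 9.72% of all PR sites. Of the PR-only sites 616 of 10947 did (5.63%, 5.2 to 6.08), a difference of 50.7 points (47.5 to 53.8). Among the higher-scoring 50% of each list, 11.3% of PR-only and 68.3% of shared PR sites lay at a reChIP site. Pairs with both sites above percentile 80 lay at a reChIP site in 173 of 207 cases (83.6%, 77.8 to 88.3), and those with neither above it in 119 of 325 (36.6%, 31.4 to 42.1). Seen from the reChIP list, 559 of its 9861 sites (5.67%) met both an ER and a PR site, 1359 (13.8%) an ER site only, 641 (6.5%) a PR site only and 7302 (74%) neither.

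The intervals of the classes did not overlap in any length bin above 150 bp in the ER list, nor in the PR list between 200 and 1000 bp. Among ER sites of over 200 and up to 300 bp, 42.2% (36.2 to 48.3) of shared and 6.65% (6.06 to 7.28) of ER-only sites lay at a reChIP site. At over 400 and up to 600 bp these were 83.2% (77.9 to 87.7) and 20.5% (18.1 to 23.1). Up to 150 bp the intervals overlapped, with 8.45% (3.16 to 17.5) of shared and 5.28% (4.54 to 6.11) of ER-only sites. Among PR sites of over 400 and up to 600 bp it was 66.7% (60.9 to 72.1) of shared and 12.6% (11 to 14.2) of PR-only sites. At over 150 and up to 200 bp the PR intervals overlapped, with 7.89% (1.66 to 21.4) and 2.11% (1.21 to 3.41). Up to 150 bp none of the 18 shared PR sites was listed, which allows up to 16.7%, against 13 of 170 PR-only sites (7.65%, 4.13 to 12.7). Above 1000 bp they overlapped too, with 80% (59.3 to 93.2, 20 of 25) and 40.9% (20.7 to 63.6, 9 of 22). Within score quintiles the share ran from 33.1 to 81.7% of shared and from 4.44 to 14% of ER-only sites, and from 26.3 to 68.4% of shared and 1.68 to 17.9% of PR-only sites.

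**Figure D3:**
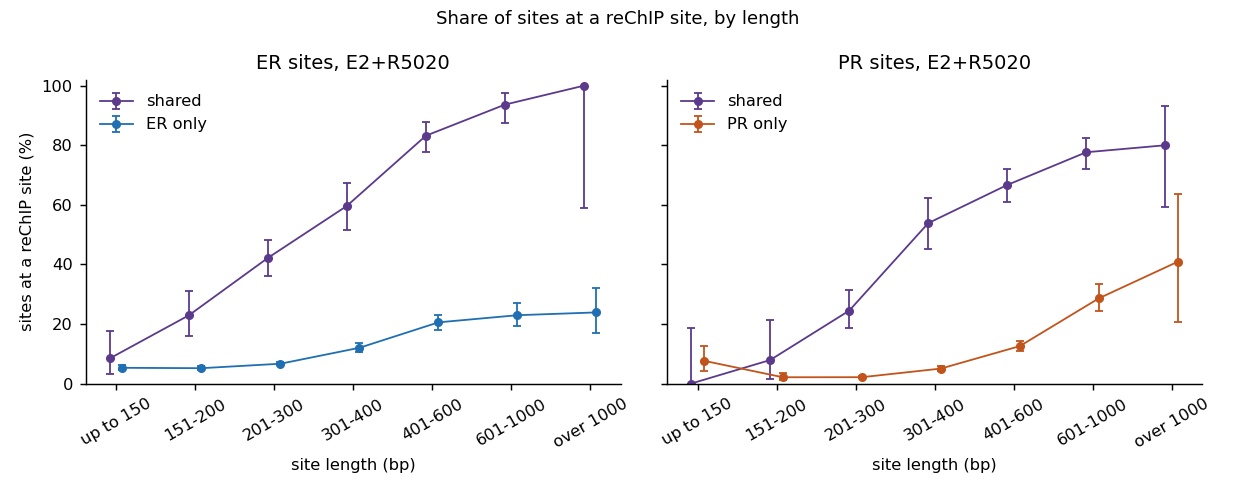
Percent of sites that lie at a reChIP site by site length (bp) for shared and single-receptor sites of the ER list (left) and the PR list (right); points are shares and bars exact 95% intervals over sites. Shared sites lie above single-receptor sites above 150 bp in the ER list and above 200 bp in the PR list, with intervals that do not overlap, except above 1000 bp in the PR list.

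A larger share of shared than of single-receptor sites recurred with single hormones, though by number most recurring sites were not shared: 488 shared and 1192 ER-only sites of the ER list were in an ER list of 1 hormone, and 246 shared and 1448 PR-only sites of the PR list were in a PR list of 1 hormone. With E2 alone, 320 of the 992 shared ER sites (32.3%) were listed for ER, beside 4.47% of all ER sites and 539 ER-only sites (2.96%). With R5020 alone it was 262 shared sites (26.4%), beside 4.98% of all and 3.82% of ER-only sites. For PR with R5020 it was 16.2% of shared sites, beside 1.39% of all and 0.582% of ER-only sites, and for PR with E2 7.86%, beside 1.62% and 1.28%. The same classes seen from the PR list gave 32.4% of shared sites with ER and E2, beside 5.29% of all PR sites and 2.91% of PR-only sites. With ER and R5020 they gave 27.2%, beside 8.34% and 6.69%, and with PR and R5020 17.7%, beside 6.71% and 5.75%. The PR list of E2 made no such distinction: it held 88 of the 961 shared PR sites (9.16%, 7.41 to 11.2) and 913 PR-only sites (8.34%, 7.83 to 8.87), beside 8.41% of all PR sites. That difference was 0.817 points (-0.931 to 2.87). The class rule itself used the opposite receptor. Part of the differences at PR lists for ER sites, and at ER lists for PR sites, may thus be built into the classes. All lists of a line and antibody may rest on the same subtracted vehicle library. Its part in these overlaps was not tested.

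In the PR list, recurrence with R5020 alone was most frequent among the longest sites, where the intervals of the classes overlapped. Up to 150 bp it was 11.1% (1.38 to 34.7) of shared and 11.2% (6.86 to 16.9) of PR-only sites, and at over 300 and up to 400 bp 6.29% (2.92 to 11.6) and 4.55% (3.8 to 5.39). At over 400 and up to 600 bp, 9.47% (6.34 to 13.5) of shared and 10.3% (8.87 to 11.8) of PR-only sites were PR sites with R5020. At over 600 and up to 1000 bp the shares were 36.7% (30.9 to 42.9) and 28.6% (24.3 to 33.3), and above 1000 bp 72% (50.6 to 87.9) and 68.2% (45.1 to 86.1). The classes stood apart at over 200 and up to 300 bp, with 7.45% (4.13 to 12.2) and 2.89% (2.45 to 3.38). By score they stood apart in the highest quintile, with 24.5% (21 to 28.2) and 15.3% (13.6 to 17). In the lowest quintile it was 8.77% (2.91 to 19.3) and 1.81% (1.3 to 2.43), and in the others the intervals overlapped. In the ER list of E2 the classes stood apart at over 400 and up to 600 bp, with 42.5% (36.6 to 48.4) of shared and 5.55% (4.51 to 6.75) of PR-only sites. At over 600 and up to 1000 bp it was 34.5% (28.8 to 40.5) and 4.89% (3.01 to 7.45). PR sites were classed by an ER list, so part of the difference at another ER list may be built into the classes.

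In PR-deficient cells the shared sites were again listed for ER more often than the ER-only sites, with 2 of the 3 treatments. With E2, 337 of the 992 shared ER sites (34%, 31 to 37) were ER sites there, beside 5.7% of all ER sites and 4.16% of ER-only sites. With both hormones it was 25.7%, beside 4.77% and 3.63%. With R5020 it was 28 sites (2.82%), beside 2.17% of all and 2.14% of ER-only sites, and the difference of 0.683 points had an interval of -0.207 to 1.93. From the PR list, shared sites gave 34.8% with E2, 26% with both hormones and 3.02% with R5020, beside 7.75%, 5.95% and 2.86% of all PR sites and 5.38%, 4.18% and 2.85% of PR-only sites. PR sites were classed by an ER list, so part of the differences seen from the PR list may be built into the classes. PR-only sites were ER sites of some PR-deficient list in 946 of 10947 cases (8.64%, 8.12 to 9.18), and ER sites of T47D with a single hormone in 1006 (9.19%, 8.65 to 9.75). Sites were wide in 3 of the 8 other lists: the median was 1171 bp for ER with E2 in T47D, 1076.5 bp for ER with E2 in PR-deficient cells and 1329 bp there with both hormones. Wide sites meet others more easily. The median of the PR-deficient list with R5020 was 236 bp. With all sites set to 200 bp around their centres, 19.3% of shared and 1.79% of ER-only sites were ER sites with E2 in T47D, and 22.7% of shared PR and 2.89% of PR-only sites were ER sites with E2 in PR-deficient cells. For ER-only sites at the PR-deficient list with E2 the share was then 2.28%, and at that with both hormones it was 1.78% of ER-only and 1.79% of PR-only sites, against 17.8% of shared ER and 17.6% of shared PR sites.

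**Figure D4:**
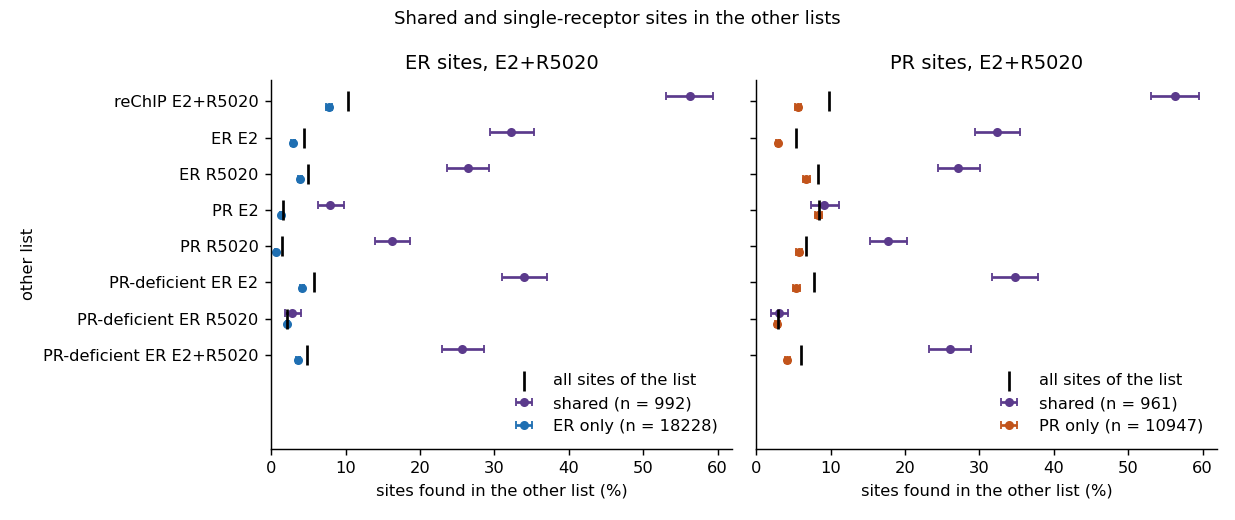
Percent of shared and single-receptor sites of the ER list (left) and the PR list (right) that overlap a site of each of the 8 other lists; points are shares, bars exact 95% intervals over sites, and black ticks the share of the whole list. Shared sites lie to the right in every row, with overlapping intervals for PR-deficient ER with R5020 in both panels and for PR with E2 in the PR panel. The classes were formed by the opposite receptor, so part of the differences in rows of that receptor may be built in.

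Counted over the 8 other lists, 199 of the 992 shared ER sites (20.1%) were in none and 368 (37.1%) in 3 or more. Of the ER-only sites 15221 (83.5%) were in none and 497 (2.73%) in 3 or more. Of the PR-only sites 7928 (72.4%) were in none and 371 (3.39%) in 3 or more. Shared ER sites that PR-deficient cells also had with both hormones lay at a reChIP site in 83.9% of cases (78.8 to 88.2, 214 of 255), against 46.7% (43 to 50.4) of those not listed there. The former were longer, with a median of 488 bp against 267 bp. Shared ER sites in the PR list of E2 went the other way, with 18 of 78 (23.1%, 14.3 to 34) at a reChIP site against 59.1% (55.8 to 62.3) of the others, and a median length of 206.5 bp against 322 bp.

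PR-only sites were unevenly spread over the chromosomes, and shared and ER-only sites were not spread in the same way. Chromosome 3 held 1782 of the 10947 PR-only sites (16.3%, 15.6 to 17), 59 of the 961 shared PR sites (6.14%, 4.71 to 7.85) and 1103 of the 18228 ER-only sites (6.05%, 5.71 to 6.41). Chromosomes 3 and 11 together held 28.2% (27.4 to 29.1) of PR-only, 12.3% (10.3 to 14.5) of shared PR and 11.5% (11.1 to 12) of ER-only sites. On chromosome 3 there were 1.62 PR-only sites for each ER-only site and on chromosome 11 there were 1.31, against 0.225 on chromosome 2 and 0.0733 on chromosome X. The share of PR sites at an ER site ran from 3.2% on chromosome 3 to 26.6% on chromosome 22, and that of ER sites at a PR site from 1.19% on chromosome Y to 11.2% on chromosome 22. Chromosome Y held 336 ER, 63 PR and 298 reChIP sites. Whether these cells hold a chromosome Y, and whether reads were placed correctly there, was not tested. The 10 windows of 5 Mb fullest in PR-only sites held 20.8% of them, and the 10 fullest in ER-only sites held 7.95% of those. The fullest for PR-only sites, chromosome 3 from 195000001 to 200000000, held 425 PR-only, 55 ER-only and 11 shared PR sites.

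Some of the other lists had the same tilt. Chromosomes 3 and 11 held 30.1% of the ER sites with R5020, 28.7% of the PR sites with R5020 and 23.5% of the PR sites with E2. They held 11.4% of the ER sites with E2, 11.5% of the reChIP sites and, in PR-deficient cells, 12.3% of the ER sites with E2, 12.8% with both hormones and 18% with R5020. In that R5020 list of PR-deficient cells, chromosome 11 held 11.6% of the sites and chromosome 3 held 6.38%, while chromosome 7 held 12.9%. In T47D, all 3 PR lists and the ER list of R5020 thus had over 20% of their sites there, and the ER lists with E2 and the reChIP list did not. The tilt was found in each score quintile of the PR-only sites, from 21.2% in the highest to 31.5% in the second lowest, and ER-only sites stayed between 11.2 and 11.9% in all 5. DNA copy number along the chromosomes of these cells was not analysed here, and its part in the tilt was not tested.

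**Figure D5:**
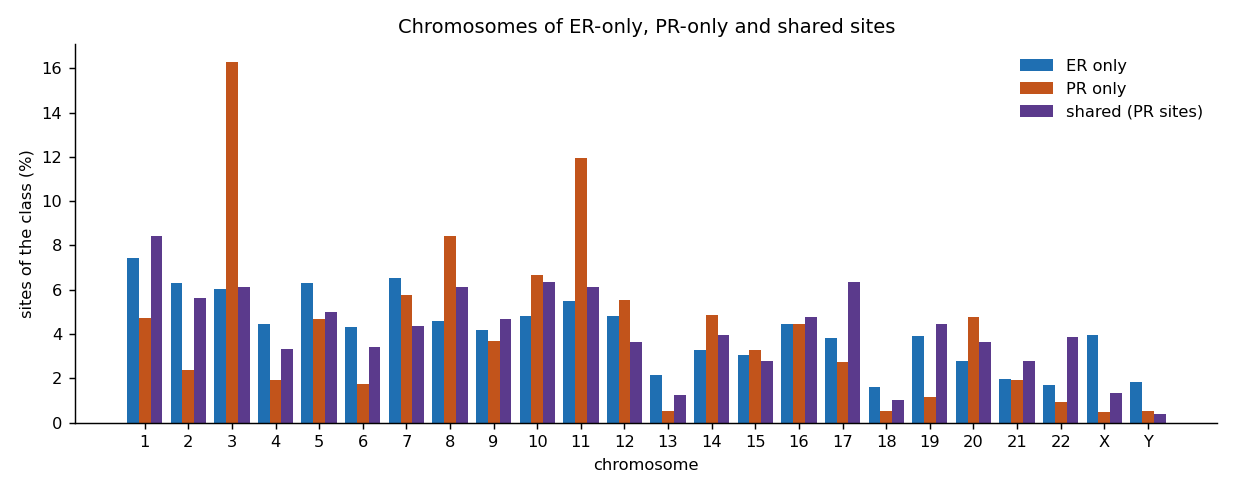
Percent of the ER-only, PR-only and shared PR sites that lie on each chromosome (bars start at 0; each class sums to all its sites). PR-only sites reach 16.3% on chromosome 3 and 11.9% on chromosome 11, where the other classes stay at 6.14% or less.

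The named sites followed a fixed rule. The 10 shared pairs of highest mean percentile were all reChIP sites. The ER list of R5020 held 9 of them, that of E2 3, the PR list of R5020 7, and the PR-deficient E2 list 8. The first, on chromosome 3, had the top score of both lists, 328.69 for ER at 127022770 to 127023798 and 204.88 for PR at 127022793 to 127023743. The PR site lay wholly inside the ER site with centres 16 bp apart, and the pair was not listed with E2 alone or in PR-deficient cells. A pair on chromosome 14 (ER at 69036360 to 69037301, score 185.41; PR at 69036316 to 69037334, score 125.57) had centres 5.5 bp apart and was in 6 other lists. The pair on chromosome 7 (ER at 157413322 to 157414299, score 206.48; PR at 157413376 to 157414332, score 90.32) was in 7 of the 8, all but the PR list of E2, the most of any pair. The others were on chromosomes 10, 8, 12, 11, 4 and, with 2 pairs, 2. That on chromosome 4 (ER at 6634680 to 6635502; PR at 6634640 to 6635707) was in 6 other lists, and 1 of those on chromosome 2 (ER at 239326618 to 239327072; PR at 239326326 to 239327168) was in the reChIP list alone. Further pairs in 6 lists had ER bounds of 17641018 to 17641763 on chromosome 1 and 11679485 to 11680239 on chromosome 2.

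Some shared pairs were strong for 1 receptor only. On chromosome 2 an ER site at 1708986 to 1709769 of percentile 98.7 held a PR site of the lowest score (percentile 18.9), and 2 such pairs on chromosome 7 (ER bounds 74414933 to 74415489, and 74830924 to 74831570) had ER sites of percentile 98 on PR sites of that score. All 3 were ER sites with E2 and reChIP sites, and none was listed with R5020 alone. The 2 pairs on chromosome 7 had the same ER score (80.06) and were in the same 4 other lists. Whether reads were placed correctly there was not tested, so they may not be separate examples. In the opposite direction, a PR site on chromosome 17 at 73980559 to 73981210 of percentile 97.3 held an ER site of percentile 0.2, and ER sites of percentile 4.97 lay inside PR sites on chromosome 14 (77650735 to 77651795, percentile 99.6) and on chromosome 9 (38022911 to 38023509, percentile 98.8). Of these 3, 2 were PR sites with R5020 and 1 was a reChIP site.

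The 5 highest-scoring single-receptor sites of each list were all listed with R5020 alone for their own receptor. All 5 PR-only sites were PR sites with R5020 and reChIP sites, and none was an ER site of T47D with a single hormone. The highest, on chromosome 21, spanned 39018467 to 39019365 with a score of 149.8, and a further site of that chromosome spanned 43101231 to 43101995. On chromosome 17 the site ran from 71220698 to 71221425, on chromosome 16 from 4201923 to 4202914 and on chromosome 7 from 158656051 to 158657062. ER sites of PR-deficient cells with E2 were found at 3 of the 5. The lower-scoring site on chromosome 21 was 2532 bp from the nearest ER site, and the others were 61868 to 263919 bp away. All 5 ER-only sites were ER sites with R5020, 1 was an ER site with E2, and 3 were reChIP sites. Of the 5, 3 lay next to a long empty stretch. They were bases 121468039 to 121468238 of chromosome 1 and, on chromosome Y, bases 58851640 to 58851861 and 58869596 to 58869797. Whether reads at these places were placed correctly was not tested, so they may not be receptor sites. The other two were bases 39899973 to 39900595 of chromosome 19 (score 202.27) and 6752494 to 6753183 of chromosome 4 (score 198.06). Both were reChIP sites and ER sites of PR-deficient cells with E2 and with both hormones. The site on chromosome 4 was 1518 bp from a PR site of both hormones and was a PR site with E2 alone.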

How the data were processed

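ChIP-seq libraries of T47D and PR-deficient T47D cells were aligned with Bowtie2 and sites called with MACS on hg19, per the submitters' processing notes. Versions, settings and the way in which vehicle and IgG libraries were subtracted are not given in the sources used here. The deposited lists, 1 per library and not pooled, hold chromosome, start, end, length and a score for each site. The score is the authors' value and its unit is not stated. It rises in even steps (4.21 in the ER list and 2.2 in the PR list of both hormones, with lowest scores of 4 and 7 steps). Depth is unknown.

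All sites were used. Overlaps, exact Clopper-Pearson and Newcombe 95% intervals came from SciPy 1.17.1 under Python 3.11.15. Tables were handled by pandas 2.3.3 over NumPy 2.4.6, and matplotlib 3.10.9 drew the plots. Overlap code was tested on simulated lists. Where a count is 0, the limit is 3 counts of the total. Score quintiles broke ties by length and position. Length bins end at 150, 200, 300, 400, 600 and 1000 bp. Named sites were the 10 shared pairs of highest mean percentile, the 5 highest-scoring single-receptor sites of each list, 3 pairs with the widest rank gap each way and the 5 pairs in most other lists. Members, lists and rules were chosen with earlier results of these data known. Planned work on motifs and nearby genes was not run.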

Additional observations from a re-analysis of the deposited data

How the results depend on the processing

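No paired analysis was possible because every group is a single library. The share of ER sites at a PR site, 5.16%, was 3.41% with an overlap of 50% or more of each site, 4.83% with centres within 200 bp, 6.19% where a gap of 500 bp was allowed, and 4.82% with all sites set to 200 bp. It was 4.42% with the lowest score raised by 1 step, 5.98% with an ER list of the length of the PR list, 5.72% with sites within 500 bp merged and 5.74% without chromosome Y and sites by long empty stretches. The share of PR sites at an ER site, 8.07%, was 5.5% with 50% of both, 9.75% with the gap, 8.65% in the higher-scoring 50% of each list, 11% with the raised score, 5.9% with lists of equal length and 10.4% without chromosomes 3, 8, 10 and 11. The ER share thus ran from 3.41 to 6.19% and the PR share from 5.5 to 11%. The raised score took out 76 ER sites (0.395% of the list) but 4497 PR sites (37.8%), so the 11% rests on a much shorter PR list. Counting the reChIP shares below as well, 34 values under the alternatives lay outside the interval of the main setting and 26 inside it. The reChIP share of shared sites, 56.2% for ER and 56.3% for PR, became 62.6 and 62.7% with 50% of both, 50.3 and 49.2% with the gap, 69.2 and 68.3% in the higher-scoring 50%, and 63.9 and 63.4% with lists of equal length. For ER-only sites, 7.78%, it was 8.44% with 50% of both, 7.18% at 200 bp, 10.2% in the higher-scoring 50%, 9.44% with equal lists, 8.63% with merging and 7.4% without the sites by stretches. For PR-only sites, 5.63%, it was 6.63% with 50% of both, 5.19% at 200 bp, 11.3% in the higher-scoring 50%, 7.67% with the raised score, 6.35% with equal lists and 7.59% without the 4 chromosomes. The cause of these moves was not tested. Across all 10 alternatives the shared class exceeded the single class at reChIP sites by 42.7 to 59 points in the ER list and by 43.7 to 57.1 in the PR list. Of 16 such differences over the 8 other lists, 15 kept their direction in all 10. The exception was the PR list of E2 seen from the PR list, at -0.0872 points with the raised score. What the unknown depth could have hidden was not analysed here.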
